A study of Homo sapiens with 15 samples.

Results

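The 44 genes described here encode ligands, latency proteins, receptors, SMADs, inhibitors and direct targets of transforming growth factor beta (TGF-beta) and bone morphogenetic protein (BMP) signalling. They were chosen by symbol as pathway members, with earlier results of these data known, and matched to the Ensembl identifiers of the count tables. They make up 44 of 62700 genes in each table. Shares of these genes are set beside those of all genes as a description only, without matching for expression level. All 44 passed the filter on low counts in both tables. Bulk RNA-seq came from 143B, an established human osteosarcoma cell line, labelled as bone tissue, in 5 conditions with 3 libraries each. The non-OSC libraries (genotype WT) came from adherent cells grown in DMEM with foetal bovine serum. The OSC libraries (genotype WT) came from tumour spheres, grown without serum in DMEM/F12 with B27 lacking vitamin A, epidermal growth factor and basic fibroblast growth factor. The other 9 libraries came from spheres carrying a lentiviral hairpin: shCtrl (genotype WT), shPDK1#1 (shPDK1_1) or shPDK1#2 (shPDK1_2), the latter 2 directed against PDK1, the pyruvate dehydrogenase kinase that holds back entry of pyruvate into the TCA cycle. The study asked how OSCs, its sphere-forming stem-like cells, differ from adherent cells and what PDK1 knockdown changes in the spheres. Every group is a sample of 1 cell line. The OSC and non-OSC groups differed in both culture format and medium, which cannot be told apart. The sources do not say whether the 3 libraries of a group came from separate cultures, so the p-values measure only the spread among these libraries.

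Ligands of the TGF-beta family bind pairs of type I and type II receptor kinases at the cell surface. TGF-beta and activin receptors phosphorylate SMAD2 and SMAD3, BMP receptors phosphorylate SMAD1, SMAD5 and SMAD9, and both branches use SMAD4 to reach target genes in the nucleus. TGF-beta is secreted in a latent form that LTBP proteins tether to the matrix, and BMPs and activins are trapped outside the cell by antagonists such as gremlin and follistatin. Both branches switch on their own inhibitors, among them SMAD6 and SMAD7, and BMPs induce the ID genes. In bone, BMPs drive osteoblast differentiation and TGF-beta is stored in the matrix.

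Of the 44 genes, 8 had an absolute log2 fold change of at least 0.8 with shPDK1#2. ID3, SMAD7, ID1 and SMAD6 were higher, and GREM1, PMEPA1, FST and INHBA were lower. The limit of 0.8 was used only to pick these windows and is below the 1 used to name genes. SMAD6 (0.807) and PMEPA1 (-0.804) passed it narrowly. The 250 bases upstream of the start are shown for the 4 that rose, because SMAD proteins are known to bind short motifs. Of the 4 that fell, they are shown for GREM1, the only one whose window held any motif searched. The windows come from RefSeq (GRCh38.p14), which held one for 42 of the 44 genes. They lie at chr1:23559502-23559751 on the minus strand (ID3), chr18:48950966-48951215 on the minus strand (SMAD7), chr20:31605039-31605288 on the plus strand (ID1), chr15:66701986-66702235 on the plus strand (SMAD6) and chr15:32717754-32718003 on the plus strand (GREM1). Each reads 5′ to 3′ on the strand of its gene, and capitals mark CAGAC or its reverse complement GTCTG, the palindrome GTCTAGAC (which contains neither) and the GC-rich GGCGCC.
ID3: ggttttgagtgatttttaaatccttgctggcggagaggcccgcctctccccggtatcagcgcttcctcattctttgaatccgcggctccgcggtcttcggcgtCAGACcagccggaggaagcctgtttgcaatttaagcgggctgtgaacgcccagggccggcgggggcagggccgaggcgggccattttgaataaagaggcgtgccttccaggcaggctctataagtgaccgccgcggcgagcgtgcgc
SMAD7: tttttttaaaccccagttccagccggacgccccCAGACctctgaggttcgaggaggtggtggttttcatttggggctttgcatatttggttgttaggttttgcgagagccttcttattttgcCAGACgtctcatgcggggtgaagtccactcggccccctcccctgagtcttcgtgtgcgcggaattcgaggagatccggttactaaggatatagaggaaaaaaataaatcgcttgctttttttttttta
ID1: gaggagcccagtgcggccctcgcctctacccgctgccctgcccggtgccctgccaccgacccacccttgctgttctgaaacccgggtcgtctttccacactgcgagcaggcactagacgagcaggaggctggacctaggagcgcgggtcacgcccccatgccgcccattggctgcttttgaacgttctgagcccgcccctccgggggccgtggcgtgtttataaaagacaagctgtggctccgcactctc
SMAD6: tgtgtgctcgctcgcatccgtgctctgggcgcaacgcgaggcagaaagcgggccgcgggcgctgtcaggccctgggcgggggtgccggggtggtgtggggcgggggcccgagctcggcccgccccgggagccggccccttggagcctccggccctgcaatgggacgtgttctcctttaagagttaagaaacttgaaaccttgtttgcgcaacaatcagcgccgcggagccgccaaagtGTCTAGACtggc
GREM1: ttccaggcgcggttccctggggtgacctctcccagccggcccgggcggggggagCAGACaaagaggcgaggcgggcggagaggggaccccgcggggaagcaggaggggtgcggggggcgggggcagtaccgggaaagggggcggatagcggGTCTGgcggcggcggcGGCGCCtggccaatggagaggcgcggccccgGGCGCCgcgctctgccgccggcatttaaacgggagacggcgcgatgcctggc

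CAGAC or GTCTG stood once upstream of ID3, at 2 places upstream of SMAD7 and at 2 upstream of GREM1, and nowhere in the ID1 and SMAD6 windows. GTCTAGAC, the palindromic SMAD box, was found upstream of SMAD6 and of no other of the 42 genes. GREM1 also held GGCGCC at 2 places. Over all 19096 promoter windows of the same length, searched on both strands, CAGAC was found in 37.4%, GGCGCC in 20.5% and GTCTAGAC in 0.215%. Of the 42 pathway windows, 12 held CAGAC and 16 held GGCGCC. The ATF/CREB site TGACGTCA occurred upstream of 2 pathway genes (LTBP1 and SKIL) and in 2.29% of all windows, and the AP-1 site TGACTCA or TGAGTCA upstream of 0 pathway genes and in 3.58% of all windows. The windows of PMEPA1, FST and INHBA, the other 3 of these 8 genes, held none of these 5 motifs. A match describes letters and is not evidence of a bound site.

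The libraries held between 7992505 and 10495047 counts in the table of OSCs and non-OSCs and between 8073051 and 11256530 in the hairpin table. Values are given as CPM, the counts scaled by the TMM-normalised size of each library, and a group value is a mean ± SD of n = 3 libraries. VIM was high throughout, at group means of 3952 to 5848 CPM. Of 8 osteoblast and osteosarcoma markers, SPARC, SPP1 and COL1A1 were high, while IBSP was at 0 and SP7 at no more than 0.0347 CPM in any group mean. COL1A2 and ALPL were low too, at group means of no more than 1.49 and 2.66 CPM, so the osteoblast label rests on part of the list. Summed markers of endothelial cells did not exceed 1.85 CPM and those of leukocytes 2.77 CPM in any library, with CDH5 at 0. The hairpin labels were checked on PDK1 itself. It was read at 46.7, 44.7 and 44.4 CPM with shCtrl, at 28.98, 27.8 and 27.3 CPM with shPDK1#1 and at 18.3, 21.5 and 19.6 CPM with shPDK1#2. PDK1 stood at 62.01% of shCtrl with the first hairpin and at 43.7% with the second (edgeR adjusted p = 7.13e-06 and 5.89e-11).

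The level of the 44 genes spanned a wide range in every condition. Between genes, levels are compared as CPM per kilobase of annotated exon. TGFB1, the main secreted TGF-beta isoform, had 127 CPM per kilobase in non-OSCs and 152 in OSCs, and contributed between 99.04% and 99.7% of the summed per-kilobase level of TGFB1, TGFB2 and TGFB3 in each of the 15 libraries. TGFB2 and TGFB3 stood at 0.436 and 0.464 CPM per kilobase in non-OSCs. The targets TGFBI, ID1 and ID3 were the other genes at or near the top, with 78.8, 110.3 and 102 CPM per kilobase in non-OSCs. TGFBI, a matrix protein induced by TGF-beta, led in OSCs with 214, whereas ID1 and ID3 stood at 60.9 and 33.3 there. With the length of the canonical transcript in place of all annotated exons, TGFBI also led in non-OSCs (224 CPM per kilobase, against 149 for TGFB1). Among receptors, TGFBR2, the type II receptor of TGF-beta, was highest at 37.8 CPM per kilobase in non-OSCs, and ACVR2A, a type II receptor of activins, was lowest at 1.48. ID2 was far below its relatives, at 0.813 CPM per kilobase in non-OSCs and 0.947 in OSCs. Between 6 and 7 genes per condition had a mean under 10 CPM, and for these the counts limit what can be seen.

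**Figure D1:**
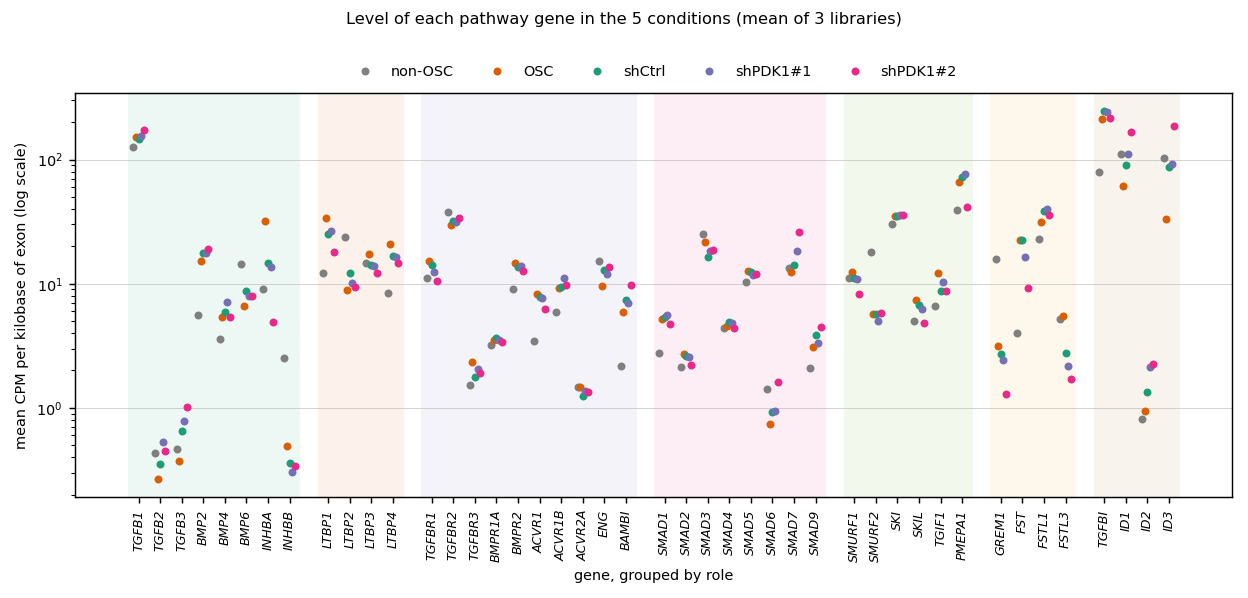
Mean level of each of the 44 pathway genes in CPM per kilobase of annotated exon (vertical axis, log scale) in the 5 conditions (colours; mean of 3 libraries), grouped along the horizontal axis by role (shaded bands). TGFB1, TGFBI, ID1 and ID3 sit highest, and TGFB2, TGFB3, INHBB and ID2 are among the lowest. The 2 tables were normalised apart, so non-OSC and OSC points are not set against hairpin points.

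Between OSCs and non-OSCs, 35 of the 44 genes differed at an adjusted p under 0.05, 24 higher and 11 lower in OSCs, where 63.9% of all 14287 genes tested did (32.4% higher and 31.5% lower). The share of the pathway genes was 79.5%. Their median log2 fold change was 0.26, against -0.0053 over all genes, and 14 had an absolute log2 fold change of at least 1, a size that 15.7% of all genes reached with the test passed. Within ligands, latency proteins and antagonists, members with related roles went opposite ways. In bulk libraries, fewer cells of a kind and less RNA per cell cannot be told apart. The libraries of the 2 groups were fully separate for 36 of the 44 genes, against 66.9% of all genes. All 35 kept their call when each library was left out and under every other setting tried.

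The activin subunit INHBA, which forms activin A as a dimer, was read at 85.4, 70.3 and 69.4 CPM in the non-OSC libraries and at 263, 271 and 254 CPM in the OSC libraries. The OSC libraries lay above all non-OSC libraries, and the ratio of means was 3.500 (log2 fold change 1.804 ± 0.07, SE; edgeR adjusted p = 8.88e-16). INHBB, the subunit of activin B, stood at 9.26, 7.33 and 7.49 CPM in non-OSCs and at 1.72, 1.32 and 1.69 CPM in OSCs. Its direction was the opposite, with a log2 fold change of -2.35 ± 0.25 (edgeR adjusted p = 4.65e-08). Of the BMP ligands, BMP2, an osteogenic factor, was read at 19.2, 20.2 and 19.6 CPM in non-OSCs and at 54.2, 53.9 and 53.5 CPM in OSCs, a log2 fold change of 1.45 ± 0.09 (edgeR adjusted p = 2.78e-12). BMP6 was read at 52.9, 57.2 and 54.2 CPM in non-OSCs and at 22.3, 25.9 and 26.3 CPM in OSCs, a log2 fold change of -1.14 ± 0.09 (edgeR adjusted p = 2.82e-10). For neither gene did OSC and non-OSC libraries overlap. BMP4 rose by a smaller amount (0.60, from 11.03 ± 1.21 to 16.9 ± 2.89 CPM), as did TGFB1 (0.26, from 415 ± 27.5 to 496 ± 20.1 CPM). BMP4 shares 16.3% of its exon length with an unnamed gene on the opposite strand, and the strandedness of the counting is not given in the sources used here. TGFB2 and TGFB3 did not pass the test at means of 2.64 and 2.42 CPM in non-OSCs, and TGFB2 passed it without OSC replicate 3 (log2 fold change -1.16). TGFB2 also shares 22.7% of its exon length with TGFB2-OT1 on the same strand.

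All 4 latency proteins, which bind latent TGF-beta or fibrillin in the matrix, differed between OSCs and non-OSCs. LTBP1 was read at 88.5, 91.4 and 86.8 CPM in non-OSCs and at 246, 250.5 and 247 CPM in OSCs (log2 fold change 1.48 ± 0.05, edgeR adjusted p = 3.9e-16). LTBP4 was read at 57.7, 75.7 and 70.4 CPM in non-OSCs and at 165, 181 and 165 CPM in OSCs (log2 fold change 1.33 ± 0.08, edgeR adjusted p = 1.56e-12). LTBP2, the member that does not bind latent TGF-beta, was read at 214, 219 and 218 CPM in non-OSCs and at 81.6, 78.6 and 83.5 CPM in OSCs (log2 fold change -1.42 ± 0.05, edgeR adjusted p = 1.45e-15). LTBP1 and LTBP4 were thus higher and LTBP2 lower in every OSC library than in any non-OSC library. LTBP3 rose by 0.25 on the log2 scale, from 169 ± 9.99 to 201 ± 11.2 CPM.

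Of the 10 receptors and co-receptors, 6 were higher, 2 were lower and 2 did not pass the test. ACVR1, a type I receptor of BMPs, was read at 35.6, 32.5 and 33.8 CPM in non-OSCs and at 75.6, 81.4 and 86.3 CPM in OSCs, a log2 fold change of 1.25 ± 0.08 (edgeR adjusted p = 5.46e-12). BAMBI, a pseudoreceptor without a kinase domain that dampens signalling, was read at 4.34, 5.14 and 4.41 CPM in non-OSCs and at 12.8, 12.4 and 12.4 CPM in OSCs, a log2 fold change of 1.44 ± 0.17 (edgeR adjusted p = 1.69e-07). Both showed separate groups, although BAMBI is one of the genes with few counts. The type II receptor BMPR2 (0.69), the activin type I receptor ACVR1B (0.63), the co-receptor TGFBR3 (0.61) and the type I receptor TGFBR1 (0.44) rose by less on the log2 scale. The 2 that fell were TGFBR2 (-0.35), the partner of TGFBR1, and the co-receptor ENG (-0.67). BMPR1A (0.13 ± 0.10) and ACVR2A (0.01 ± 0.16) did not pass the test; BMPR1A passed it without non-OSC replicate 1 (log2 fold change 0.23), and 9.11% of its sequence is shared with other genes, among them its pseudogenes.

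SMAD changes were smaller. Among the receptor-activated SMADs, SMAD1 rose most, from 19.7 ± 0.646 to 36.9 ± 3.18 CPM (0.91 on the log2 scale), and SMAD9 (0.56), SMAD2 (0.36) and SMAD5 (0.29) rose too. SMAD3, the other TGF-beta effector, fell by 0.21, from 252 ± 5.68 to 218 ± 6.68 CPM. SMAD4, the partner of all of them, did not pass the test (0.05 ± 0.07). SMAD6, an inhibitor mainly of BMP signalling, was read at 12.2, 11.5 and 12.9 CPM in non-OSCs and at 5.91, 6.47 and 6.52 CPM in OSCs, a log2 fold change of -0.95 ± 0.16 (edgeR adjusted p = 2.17e-05). SMAD7, which inhibits both branches, was read at 51.1, 53.96 and 53.9 CPM in non-OSCs and at 44.5, 50.2 and 51.8 CPM in OSCs. Its groups overlapped and it did not pass the test (-0.12 ± 0.08, edgeR adjusted p = 0.209).

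Of the inhibitors inside the cell, SMURF2, a ubiquitin ligase for receptors and SMADs, was read at 137, 131 and 124 CPM in non-OSCs and at 44.1, 44.6 and 35.5 CPM in OSCs. It fell to 31.7% of its non-OSC mean (log2 fold change -1.66 ± 0.08, edgeR adjusted p = 4.84e-14), whereas its paralogue SMURF1 did not pass the test (0.15 ± 0.07, edgeR adjusted p = 0.0534) and passed it without non-OSC replicate 3 (0.19) or OSC replicate 1 (0.19), with scaling by library size alone (0.19), with at least 10 counts required in every library (0.16) and with the replicate block (0.15). TGIF1, a SMAD corepressor, was read at 49.3, 59.9 and 52.01 CPM in non-OSCs and at 96.8, 109 and 94.2 CPM in OSCs (log2 fold change 0.90 ± 0.08, edgeR adjusted p = 1.51e-09). PMEPA1, a TGF-beta target that keeps SMAD2 and SMAD3 from the receptor, was read at 219, 225 and 226 CPM in non-OSCs and at 373, 370.2 and 393 CPM in OSCs (log2 fold change 0.76 ± 0.05, edgeR adjusted p = 2.76e-12). Both were higher in every OSC library, and the corepressors SKIL (0.57) and SKI (0.20) rose as well.

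The antagonists gave the largest rise and one of the largest falls of the 44 genes. FST (chr5:53480626-53487134, plus strand, 6 merged exons) encodes follistatin, which binds activins and some BMPs. It was read at 13.4, 10.1 and 9.696 CPM in non-OSCs and at 57.7, 65.1 and 64.1 CPM in OSCs, a ratio of 5.63 (log2 fold change 2.48 ± 0.11, edgeR adjusted p = 2.2e-14). GREM1 (chr15:32718004-32745106, plus strand, 3 merged exons) encodes gremlin, which binds BMP2 and BMP4. It was read at 246, 229 and 223 CPM in non-OSCs and at 51.7, 45.9 and 42.8 CPM in OSCs, where it stood at 20.1% of the non-OSC mean (log2 fold change -2.31 ± 0.07, edgeR adjusted p = 2.02e-17). Activin subunit and follistatin thus rose together, and BMP2 rose where GREM1 fell. NOG, another BMP antagonist outside the 44 genes, rose in OSCs (values below), so BMP antagonists did not fall as a set. The per-kilobase ratio of INHBA to FST lay between 2.12 and 2.38 in the non-OSC libraries. For the OSC libraries its range was 1.32 to 1.51. The ratio of BMP2 to GREM1, which leaves NOG out, had ranges of 0.325 to 0.369 (non-OSC) and 4.37 to 5.22 (OSC). Of the other follistatin-like genes, FSTL1 rose by 0.44 on the log2 scale and FSTL3 did not pass the test (0.07 ± 0.15).

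Of the targets, TGFBI rose and ID1 and ID3 fell. TGFBI was read at 591, 610.3 and 623 CPM in non-OSCs and at 1644, 1626 and 1676 CPM in OSCs (log2 fold change 1.44 ± 0.04, edgeR adjusted p = 2.06e-18). ID1 and ID3 encode helix-loop-helix proteins that hold back differentiation and are direct BMP targets. ID1 was read at 129, 144 and 135 CPM in non-OSCs and at 65.2, 77.9 and 82.02 CPM in OSCs (log2 fold change -0.85 ± 0.07, edgeR adjusted p = 1.28e-09). ID3 was read at 148, 154 and 158 CPM in non-OSCs and at 45.96, 51.4 and 52.3 CPM in OSCs (log2 fold change -1.62 ± 0.06, edgeR adjusted p = 3.71e-15). TGFBI was higher, and ID1 and ID3 lower, in each OSC library than in each non-OSC library. ID2 did not pass the test at 1.799 ± 0.622 and 2.097 ± 0.174 CPM. The summed CPM of the 8 osteoblast and osteosarcoma markers moved with the groups, from 1084 to 1147 in non-OSCs and from 2495 to 2575 in OSCs, and of 5 tested 3 were higher and 1 (RUNX2) was lower. The sum of the 4 epithelial markers lay between 1097 and 1227 CPM in non-OSCs and between 292 and 302 CPM in OSCs, with KRT8 and KRT18 lower and CDH1 at or near 0. The sum of the 4 fibroblast markers lay between 174 and 187 CPM in non-OSCs and between 373 and 394 CPM in OSCs, nearly all of it PDGFRA, which was higher in OSCs (log2 fold change 1.09 ± 0.05, edgeR adjusted p = 1.55e-14), with DCN at 0.0964 and 0.879 CPM. The part of these lists in the pathway values was not tested.

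**Figure D2:**
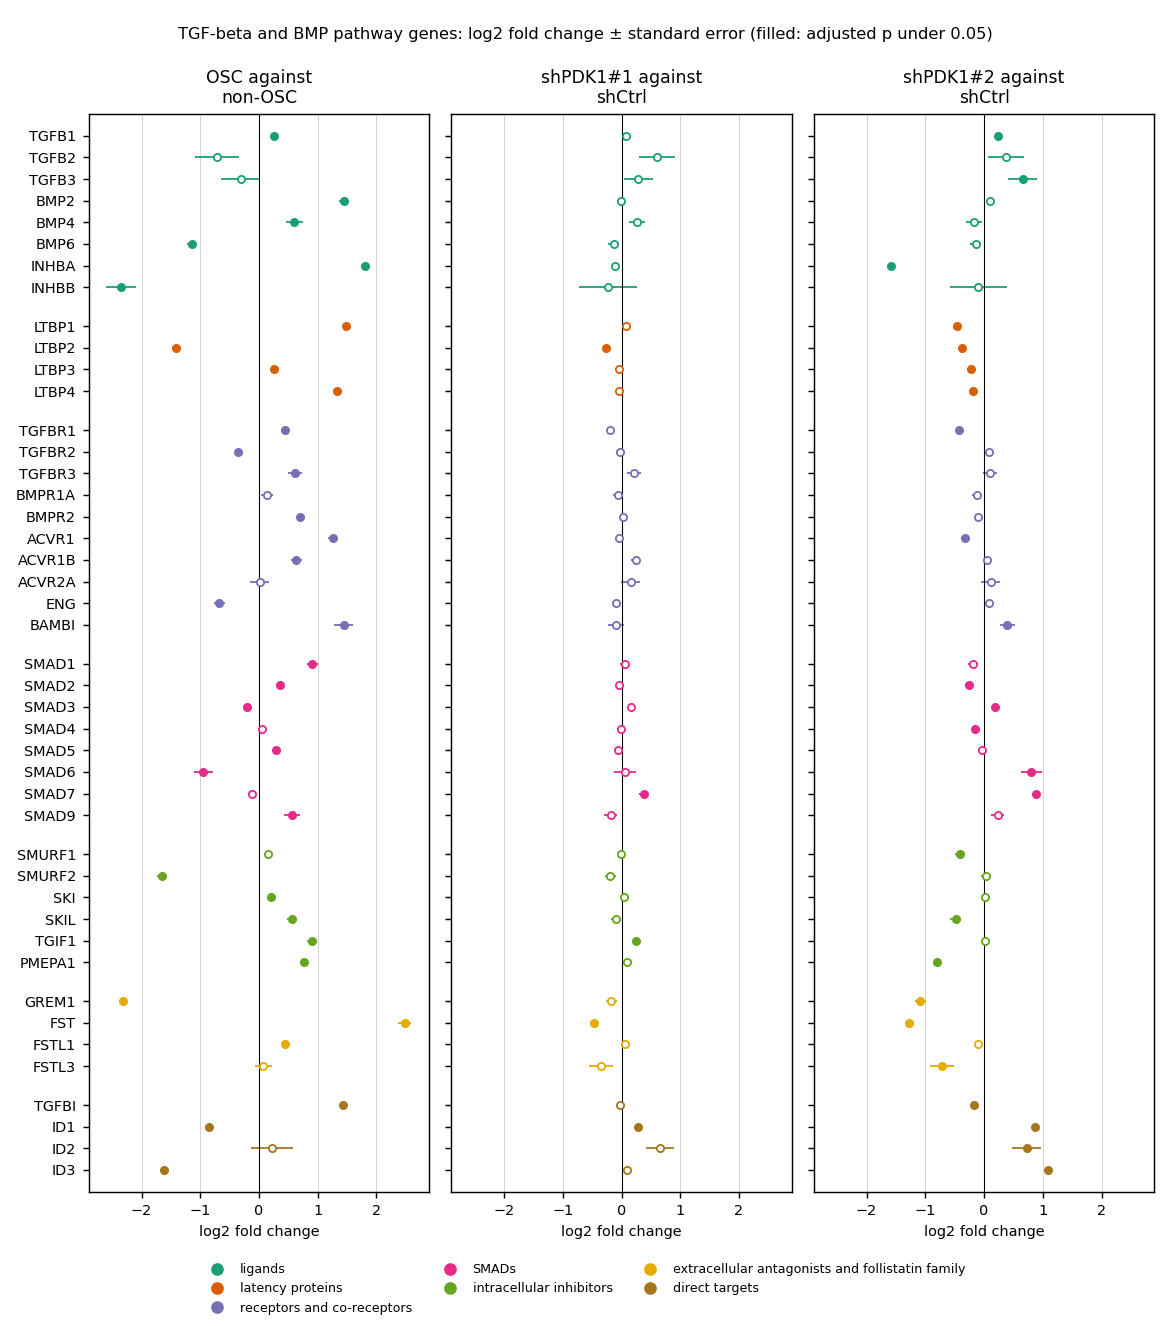
Log2 fold change (horizontal axis) ± standard error of each of the 44 pathway genes (rows, coloured by role) in OSCs against non-OSCs and in each PDK1 hairpin against shCtrl, 3 libraries per group. Filled points passed the test: 35 in the first panel, 5 in the second and 25 in the third, with FST at 2.48, -0.46 and -1.27.

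With shPDK1#1, 5 of the 44 genes differed from shCtrl, 3 higher (SMAD7, ID1 and TGIF1) and 2 lower (FST and LTBP2), where 3.06% of 14574 genes tested did (1.62% higher and 1.44% lower). The share of the pathway genes was 11.4%. With shPDK1#2, 25 differed, 9 higher and 16 lower, where 26.2% of genes tested did (12% higher and 14.2% lower), and the share was 56.8%. In 4 of them (INHBA, FST, GREM1 and ID3) the absolute log2 fold change was at least 1, a size that 2.08% of all genes reached with the test passed. Libraries were fully separate from shCtrl for 15 of the 44 genes with shPDK1#1, against 19.3% of all genes, and for 31 with shPDK1#2, against 39.5%. The comparisons share the shCtrl libraries, so their values are given side by side. With shPDK1#1, SMAD7 and FST kept their call whichever library was left out. LTBP2 lost it without shCtrl replicate 3 (log2 fold change -0.23), ID1 without shCtrl replicate 1 (0.25) or 2 (0.26), and TGIF1 without shCtrl replicate 1 (0.21) or shPDK1#1 replicate 1 (0.24) or 3 (0.22). Without shCtrl replicate 1, 3 of the 44 genes were called.

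Inhibitory SMADs and ID genes were higher with shPDK1#2. SMAD7 (chr18:48919853-48950965, minus strand, 7 merged exons) was read at 59.2, 58.5 and 49.7 CPM with shCtrl, at 70.2, 74.4 and 72.98 CPM with shPDK1#1 and at 100.3, 99.7 and 111 CPM with shPDK1#2. The 3 groups did not overlap, and the log2 fold change was 0.37 ± 0.07 with the first hairpin and 0.89 ± 0.07 with the second (edgeR adjusted p = 0.00213 and 1.6e-10). SMAD6 (chr15:66702236-66782849, plus strand, 5 merged exons) was read at 6.47, 7.83 and 9.57 CPM with shCtrl, at 5.47, 9.11 and 9.65 CPM with shPDK1#1 and at 14.2, 14.97 and 12.4 CPM with shPDK1#2. Its libraries overlapped between shCtrl and shPDK1#1 (0.05 ± 0.19, edgeR adjusted p = 0.946), while those of shPDK1#2 lay above both (0.81 ± 0.18, edgeR adjusted p = 0.00104).

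ID1 (chr20:31605283-31606515, plus strand, 1 exon) was read at 107, 109 and 121 CPM with shCtrl, at 123, 148 and 138 CPM with shPDK1#1 and at 201, 209 and 202 CPM with shPDK1#2. Each shPDK1#1 library was above each shCtrl library and each shPDK1#2 library above both, with log2 fold changes of 0.29 ± 0.06 and 0.86 ± 0.06 (edgeR adjusted p = 0.00575 and 1.36e-11); the first was lost without shCtrl replicate 1 (0.25) or 2 (0.26). ID3 (chr1:23557926-23559501, minus strand, 3 merged exons) was read at 134, 128 and 129 CPM with shCtrl, at 133, 144 and 138 CPM with shPDK1#1 and at 259.8, 287 and 286 CPM with shPDK1#2. The shCtrl and shPDK1#1 libraries overlapped (0.09 ± 0.05, edgeR adjusted p = 0.477), and ID3 was 2.13 times its shCtrl mean with shPDK1#2 (1.09 ± 0.05, edgeR adjusted p = 9.05e-15). ID2, at 2.99 ± 0.508, 4.72 ± 0.296 and 4.96 ± 0.795 CPM, passed the test with shPDK1#2 alone (log2 fold change 0.72 ± 0.24) and lost it without shCtrl replicate 1 or shPDK1#2 replicate 3 (range of single-library omissions 0.59 to 0.82). TGFBI, in contrast, was read at 1893, 1872 and 1901 CPM with shCtrl, at 1827, 1918 and 1829 CPM with shPDK1#1 and at 1663, 1709 and 1647 CPM with shPDK1#2, and fell by 0.18 on the log2 scale with the second hairpin (edgeR adjusted p = 8.94e-05). So 3 of the 4 targets rose and 1 fell with shPDK1#2.

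The activin subunit INHBA and the antagonists FST and GREM1 were lower with shPDK1#2. INHBA (chr7:41667168-41705834, minus strand, 8 merged exons) was read at 125, 129 and 114 CPM with shCtrl, at 113, 113 and 116 CPM with shPDK1#1 and at 37.9, 44.1 and 41.1 CPM with shPDK1#2. It stood at 33.5% of shCtrl with the second hairpin (-1.58 ± 0.07, edgeR adjusted p = 2.19e-15) and did not pass the test with the first (-0.11 ± 0.06, edgeR adjusted p = 0.411). FST was read at 63.6, 58.3 and 64.1 CPM with shCtrl, at 45.3, 40.4 and 49.04 CPM with shPDK1#1 and at 25.98, 24.8 and 26.1 CPM with shPDK1#2. Its 3 groups did not overlap, and it fell with both hairpins, to 72.4% and 41.3% of shCtrl (-0.46 ± 0.08 and -1.27 ± 0.08, edgeR adjusted p = 0.000656 and 6.87e-12). GREM1 was read at 39.1, 43.8 and 37.9 CPM with shCtrl, at 38.9, 32.5 and 36.2 CPM with shPDK1#1 and at 20.95, 16.4 and 19.7 CPM with shPDK1#2. The first hairpin overlapped shCtrl (-0.17 ± 0.09, edgeR adjusted p = 0.41) and the second lay below both (-1.08 ± 0.10, edgeR adjusted p = 5.68e-09). FSTL3, an activin-binding relative of follistatin, had means of 8.46 ± 1.08, 6.59 ± 0.858 and 5.19 ± 1.47 CPM and passed the test with shPDK1#2 (-0.71 ± 0.21), a call lost without shCtrl replicate 1 or shPDK1#2 replicate 1 (range of single-library omissions -0.88 to -0.49). FSTL1 did not pass it (-0.10 ± 0.04, edgeR adjusted p = 0.0558) and did so without shPDK1#1 replicate 2, by DESeq2, with scaling by library size alone, with the replicate block and with the compared groups by themselves (range of single-library omissions -0.11 to -0.083).

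**Figure D3:**
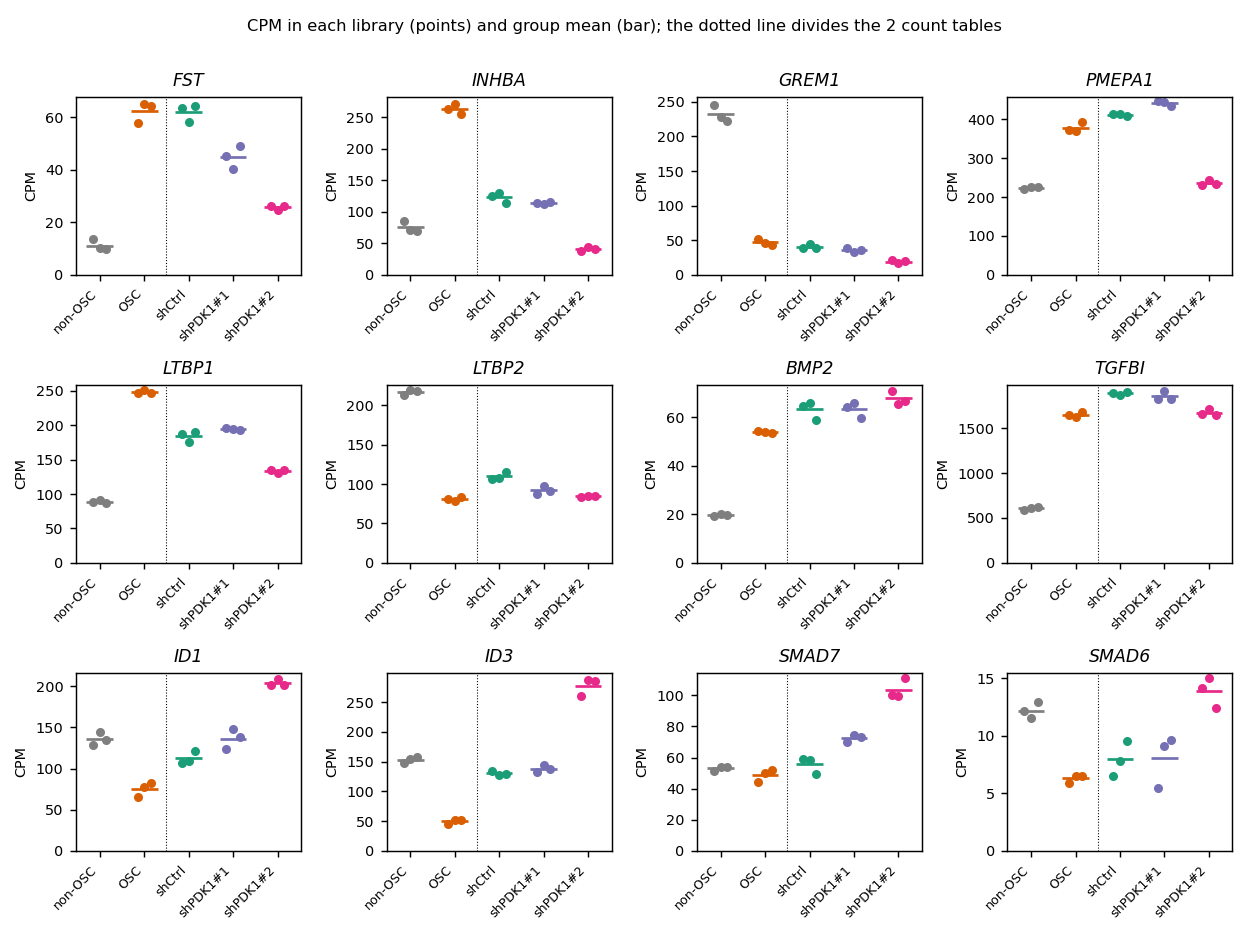
CPM (vertical axes, from 0) of 12 pathway genes in each of the 15 libraries (points) with the mean of the 3 libraries of a condition (bars); the dotted line divides the tables, which were normalised apart. FST, INHBA, PMEPA1 and LTBP1 are higher in OSCs than in non-OSCs and lower with shPDK1#2 than with shCtrl, ID1, ID3 and SMAD6 show the opposite, and GREM1 and LTBP2 are lower in both.

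All 4 latency proteins fell with shPDK1#2. LTBP1 was read at 187, 175 and 189.9 CPM with shCtrl, at 196, 195 and 193 CPM with shPDK1#1 and at 134, 131 and 135 CPM with shPDK1#2, where it was below every library of the other 2 groups (-0.47 ± 0.05, edgeR adjusted p = 1.87e-08). LTBP2 was read at 107, 108 and 116 CPM with shCtrl, at 87.4, 97.1 and 91.3 CPM with shPDK1#1 and at 84.00, 85.5 and 84.8 CPM with shPDK1#2. It passed the test with both hairpins (-0.26 ± 0.06 and -0.38 ± 0.06, edgeR adjusted p = 0.00689 and 8.81e-06), the first call being lost without shCtrl replicate 3 (-0.23). LTBP4 was read at 139, 136 and 133 CPM with shCtrl, at 121, 149.8 and 124 CPM with shPDK1#1 and at 114, 129 and 114 CPM with shPDK1#2. Its fall of 0.19 and that of LTBP3 by 0.22 on the log2 scale were small (edgeR adjusted p = 0.0332 and 0.0201). Without shCtrl replicate 1 or 2 or shPDK1#2 replicate 1, neither passed the test, and LTBP4 did not pass it without shCtrl replicate 3 or shPDK1#2 replicate 3 either; their log2 fold changes ranged from -0.25 to -0.16 (LTBP4) and from -0.26 to -0.17 (LTBP3) over all single-library omissions.

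Most receptors did not pass the test with either hairpin. TGFBR1 fell by 0.43 on the log2 scale with shPDK1#2, from 113 ± 2.96 to 83.9 ± 7.45 CPM (edgeR adjusted p = 5.15e-06), and had 98.8 ± 3.27 CPM with shPDK1#1 (edgeR adjusted p = 0.0871; 0.04 without shPDK1#2 replicate 2). ACVR1 was read at 75.1, 78.9 and 78.8 CPM with shCtrl, at 77.99, 75.3 and 73.5 CPM with shPDK1#1 and at 66.1, 58.6 and 60.9 CPM with shPDK1#2, and fell with the second hairpin (-0.33 ± 0.06, edgeR adjusted p = 0.000276). BAMBI was read at 15.8, 13.6 and 18.3 CPM with shCtrl, at 15.3, 15.4 and 13.9 CPM with shPDK1#1 and at 20.7, 24.2 and 17.4 CPM with shPDK1#2. Its lowest shPDK1#2 library lay below the highest shCtrl library. It was the 1 receptor gene that rose (0.40 ± 0.13, edgeR adjusted p = 0.0222), and lost the call without shCtrl replicate 1 or 2 or shPDK1#2 replicate 1 or 2 (range of single-library omissions 0.28 to 0.505). The other 7, TGFBR2, TGFBR3, BMPR1A, BMPR2, ACVR1B, ACVR2A and ENG, had log2 fold changes between -0.12 and 0.11 with shPDK1#2 and between -0.09 and 0.24 with shPDK1#1, none past the threshold.

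Among ligands other than INHBA, TGFB1 rose slightly with shPDK1#2, from 479 ± 18.8 to 562 ± 29.99 CPM (log2 fold change 0.23 ± 0.05, edgeR adjusted p = 0.000518). TGFB3 passed the test narrowly at 3.37 ± 0.802 and 5.34 ± 0.632 CPM (0.66 ± 0.25, edgeR adjusted p = 0.049) and lost the call when any of 6 libraries was left out (shCtrl replicate 1 or 3, shPDK1#1 replicate 3, or any shPDK1#2 library; range of single-library omissions 0.48 to 0.84). BMP2 was read at 64.8, 65.9 and 59.01 CPM with shCtrl, at 64.3, 65.7 and 59.6 CPM with shPDK1#1 and at 70.8, 65.6 and 66.8 CPM with shPDK1#2, whose ranges overlapped. BMP6 was read at 35.2, 31.5 and 32.5 CPM with shCtrl, at 31.8, 29.7 and 29.1 CPM with shPDK1#1 and at 32.1, 26.6 and 31.04 CPM with shPDK1#2. Neither passed the test with either hairpin, and nor did BMP4, TGFB2 or INHBB, the last read at 1.86, 1.004 and 0.621 CPM with shCtrl, 0.498, 1.26 and 1.16 with shPDK1#1 and 1.02, 0.809 and 1.46 with shPDK1#2.

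Effector SMADs moved little. With shPDK1#2, SMAD3 rose by 0.19 on the log2 scale, SMAD2 fell by 0.26 and SMAD4 fell by 0.15, the last with an adjusted p of 0.0444 that was lost without any one of the shCtrl libraries, shPDK1#1 replicate 3 or shPDK1#2 replicate 2 or 3 (range of single-library omissions -0.19 to -0.12). SMAD3 had a similar change with shPDK1#1 that did not pass the test (0.16 ± 0.04, edgeR adjusted p = 0.0503), with libraries separate from shCtrl. It did not differ between the hairpins (edgeR adjusted p = 0.676). SMAD1, SMAD5 and SMAD9 did not pass the test. Among the intracellular inhibitors, PMEPA1 was read at 413, 415 and 409 CPM with shCtrl, at 447, 444 and 434 CPM with shPDK1#1 and at 231, 244 and 234 CPM with shPDK1#2. It fell to 57.3% of shCtrl with the second hairpin (-0.80 ± 0.04, edgeR adjusted p = 1.93e-14) and did not pass the test with the first (0.10 ± 0.04, edgeR adjusted p = 0.179), although its shPDK1#1 libraries lay above the shCtrl libraries. SKIL fell by 0.48 and SMURF1 fell by 0.41 with shPDK1#2, and 11.7% of the exon length of SMURF1 is covered by TRRAP on the opposite strand. SMURF2 was read at 43.6, 40.6 and 39.3 CPM with shCtrl, at 36.6, 31.7 and 39.8 CPM with shPDK1#1 and at 45.3, 39.5 and 41.8 CPM with shPDK1#2, and did not pass the test with either. TGIF1 was read at 65.9, 72.4 and 72.7 CPM with shCtrl, at 85.1, 79.7 and 86.3 CPM with shPDK1#1 and at 71.3, 72.3 and 70.5 CPM with shPDK1#2. It was the 1 gene that passed the test with shPDK1#1 (0.25 ± 0.06, edgeR adjusted p = 0.0177) and not with shPDK1#2 (0.02 ± 0.06), and the first call was lost without shCtrl replicate 1 (0.21) or shPDK1#1 replicate 1 (0.24) or 3 (0.22).

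The hairpins were also compared with each other, which tests their difference directly. Of the 44 genes, 23 differed between shPDK1#2 and shPDK1#1, 7 higher and 16 lower with shPDK1#2, where 16.3% of genes tested did (6.5% higher and 9.78% lower); the share of the pathway genes was 52.3%. Libraries of the hairpins were fully separate for 28 of the 44 genes, against 30.7% of all genes. The largest differences were those of INHBA (-1.47 ± 0.07), ID3 (1.005 ± 0.05), GREM1 (-0.91 ± 0.10), PMEPA1 (-0.90 ± 0.04) and FST (-0.81 ± 0.08) on the log2 scale, all of which kept their call under every alternative (edgeR adjusted p between 5.41e-15 and 2.85e-07). PDK1 also differed between the hairpins (-0.50 ± 0.09, edgeR adjusted p = 0.00024). For 8 of these 23 genes, PMEPA1 and LTBP1 among them, the fold changes of the hairpins against shCtrl had opposite signs, and none of the 8 passed the test with shPDK1#1. With shPDK1#2 against shCtrl, only PMEPA1, LTBP1 and BAMBI of the 8 passed it. The summed CPM of the osteoblast and osteosarcoma markers moved with the hairpins, from 3650 to 3729 with shCtrl, 3917 to 3992 with shPDK1#1 and 5211 to 5344 with shPDK1#2. Of 6 such markers tested, COL1A1, COL1A2, SPARC and SPP1 were higher with shPDK1#2 than with shCtrl, and IBSP was at 0. COL1A2 rested on few counts, at 1.49 CPM with shPDK1#2 against 0.288 CPM with shCtrl. The summed CPM of the 4 epithelial markers ranged from 329.8 to 354 in the shCtrl libraries, from 379 to 397 in those with shPDK1#1 and from 436 to 475 in those with shPDK1#2, with KRT18 higher than in shCtrl with both hairpins and KRT8 with shPDK1#2. The fibroblast markers summed to 269 to 288 CPM with shCtrl, 292 to 313 with shPDK1#1 and 261 to 276 with shPDK1#2. Among them PDGFRB was at 2.75 ± 0.495, 5.08 ± 0.776 and 13.9 ± 1.09 CPM, higher than in shCtrl with shPDK1#1 (0.88 ± 0.22, edgeR adjusted p = 0.0218) and with shPDK1#2 (2.35 ± 0.19, edgeR adjusted p = 5.86e-10). LUM was higher with shPDK1#2, at 1.84 ± 0.389 CPM against 0.409 ± 0.0843 CPM (edgeR adjusted p = 0.003), PDGFRA did not pass the test with either hairpin, and DCN was not tested. The part of these lists in the pathway values was not tested.

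The OSC comparison and the hairpin comparisons have no library in common, so their directions can be set side by side. Of the 44 genes, 19 passed the test both in OSCs against non-OSCs and with shPDK1#2 against shCtrl, and 15 of them (78.9%) had opposite signs. Over all 14047 genes tested in both tables, 3033 passed both tests and 2448 (80.7%) had opposite signs, so the share among the pathway genes was near that of all genes. The group higher in OSCs and lower with shPDK1#2 held 11 genes, among them FST, INHBA, LTBP1, PMEPA1, ACVR1, TGFBR1 and SKIL. The group lower in OSCs and higher with shPDK1#2 held 4: ID1, ID3, SMAD6 and SMAD3. Same-direction changes were those of TGFB1 and BAMBI, higher in both, and of GREM1 and LTBP2, lower in both. With shPDK1#1, 4 of the 44 genes passed both tests, and 2 of these had opposite signs (FST, higher in OSCs and lower with the hairpin, and ID1, the reverse), where 206 of 380 (54.2%) of all genes did. ATF3, a stress-induced transcription factor, was read at 2.41, 2.52 and 2.31 CPM in non-OSCs and at 50.1, 49.98 and 50.4 CPM in OSCs, and had means of 31.7, 22.5 and 8.65 CPM with shCtrl, shPDK1#1 and shPDK1#2 (log2 fold changes 4.37, -0.49 and -1.87). The study picked ATF3 from this RNA-seq among genes higher in OSCs and lower with both hairpins. Its directions were therefore set by that choice and add nothing to the counts above.

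**Figure D4:**
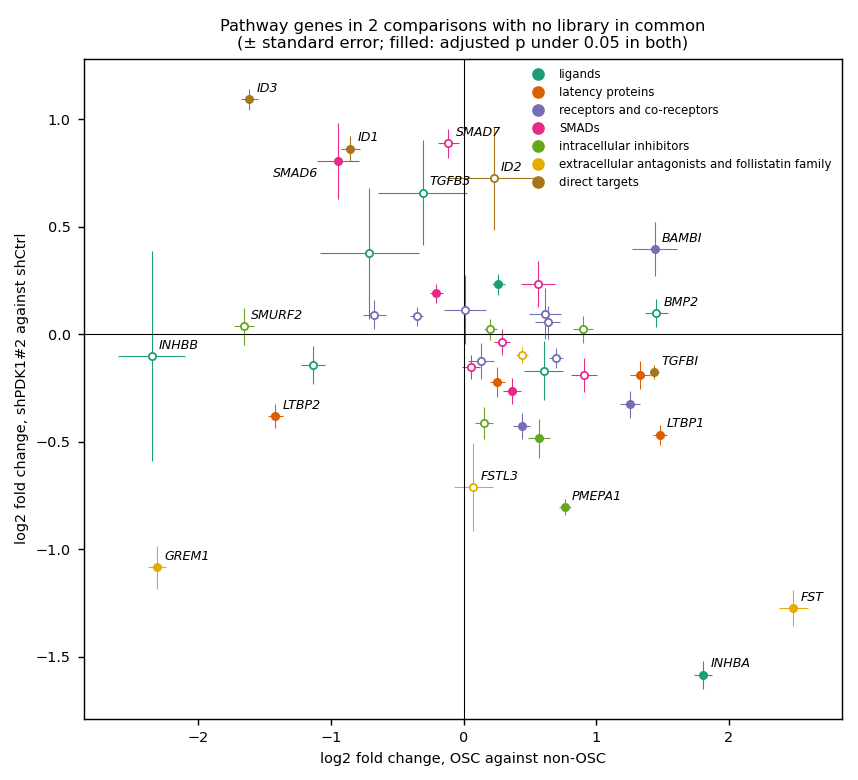
Log2 fold change ± standard error of each of the 44 pathway genes in OSCs against non-OSCs (horizontal axis) and with shPDK1#2 against shCtrl (vertical axis), 3 libraries per group and no library in common. Filled points passed both tests; 15 of these 19 lie in the quadrants of opposite sign, with FST and INHBA at lower right and ID1, ID3 and SMAD6 at upper left. GREM1 and LTBP2 at lower left fell in both.

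A further list of 102 pathway genes was examined in the same fits. In OSCs against non-OSCs, 76 of them were tested and 64 passed the test, 41 higher and 23 lower, where 63.9% of all genes passed, 32.4% higher and 31.5% lower. The 8 receptors and co-receptors tested on this list were among the 41 higher. The BMP antagonist NOG was read at 5.01, 5.03 and 7.49 CPM in non-OSCs and at 57.4, 65.3 and 69.9 CPM in OSCs (log2 fold change 3.46 ± 0.13), opposite to GREM1. THBS1, which activates latent TGF-beta, fell (375 to 60.7 CPM, -2.63), and the integrin subunit ITGB8, part of another activator, rose (4.71 to 27.8 CPM, 2.55). Responsive genes split: the matricellular gene CCN2 fell (229.8, 227 and 221 CPM in non-OSCs, 14.9, 19.02 and 17.5 in OSCs, -3.71), while ANGPTL4 (2.899), the CDK inhibitor CDKN1A (2.44), the cytokine IL11 (2.41) and smooth muscle actin ACTA2 (2.31) rose. Of the 25 responsive genes tested, 12 were higher and 11 lower.

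In the table of the hairpins, 74 of the 102 genes were tested. With shPDK1#1, 12 passed the test, 8 higher and 4 lower, where 3.06% of all genes passed, 1.62% higher and 1.44% lower. These included the BMP-family ligand GDF6 (log2 fold change 0.68), NOG (0.55), BHLHE40 (0.51), the corepressor TGIF2 (0.34) and KLF10 (0.29), which were higher, and ITGB8 (-0.53), PTHLH (-0.46) and CDKN1A (-0.28), which were lower. With shPDK1#2, 42 passed, 16 higher and 26 lower, against 26.2% of all genes, 12% higher and 14.2% lower. ATOH8, a BMP-responsive transcription factor, was read at 2.96, 4.42 and 2.11 CPM with shCtrl, at 4.23, 5.55 and 3.48 CPM with shPDK1#1 and at 11.8, 10.7 and 13.02 CPM with shPDK1#2, and rose with the second hairpin (1.88 ± 0.22, edgeR adjusted p = 3.11e-07). IL11, which TGF-beta induces, was read at 79.2, 75.1 and 75.3 CPM with shCtrl, at 67.4, 70.2 and 69.4 CPM with shPDK1#1 and at 27.5, 28.7 and 27.5 CPM with shPDK1#2, and fell with the second hairpin (-1.46 ± 0.07, edgeR adjusted p = 1.6e-14). The TGF-beta-responsive PTHLH (-1.31), CDKN1A (-1.06) and JUNB (-0.84) and the divergent family member GDF15 (-1.46) fell too, and GDF6 (0.86) and the BMP co-receptor RGMA (0.65) rose. The responsive genes were split here as well: of 25 tested, 8 were higher, COL1A1 (0.51) among them, and 10 were lower. Of the 8 other receptors tested, 5 fell and 1 rose.

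Between the hairpins, 30 of these 74 genes differed, 8 higher and 22 lower with shPDK1#2, against 16.3% of all genes, 6.5% higher and 9.78% lower. Among those with a mean of at least 10 CPM in either group, the largest differences were those of ATOH8 (1.43), IL11 (-1.31), LRRC32 (-1.23), which holds latent TGF-beta at the cell surface, PTHLH (-0.85), BHLHE40 (-0.78), CDKN1A (-0.77), JUNB (-0.68) and the BMP type I receptor BMPR1B (-0.64) on the log2 scale. BHLHE40 went opposite ways with the hairpins, with 250.3, 246 and 251 CPM with shCtrl, 351, 355 and 359 with shPDK1#1 and 207, 207 and 207 with shPDK1#2. Of 40 genes on this list that passed the test in OSCs against non-OSCs and with shPDK1#2, 30 (75%) had opposite signs, a share below the 80.7% of all genes.

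**Figure D5:**
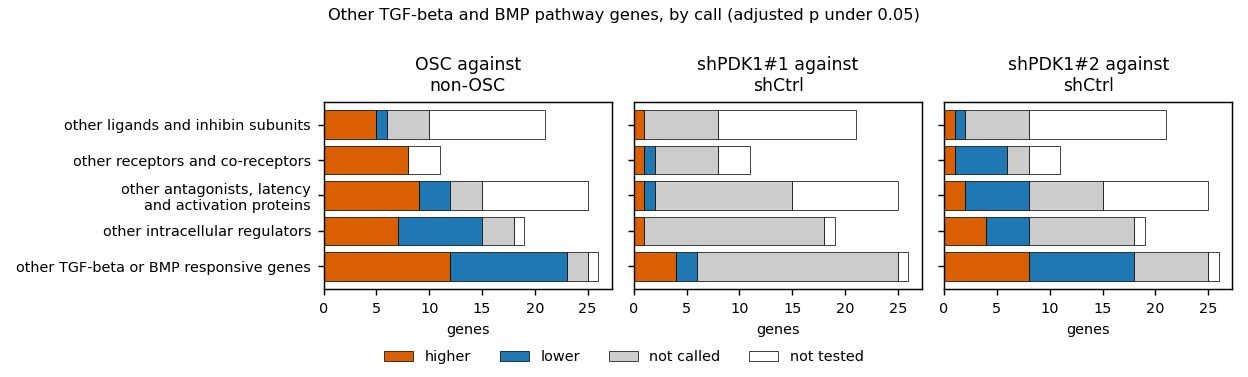
Number of genes (horizontal axes) on each of 5 lists of other pathway genes (rows) that were higher, lower or not called at an adjusted p under 0.05, or were not tested for low counts, in 3 comparisons. All 8 other receptors tested were higher in OSCs, and 5 of 8 were lower with shPDK1#2.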

How the data were processed

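RNA of the human osteosarcoma cell line 143B was measured in 15 libraries, 3 for each of 5 conditions (NEBNext Ultra RNA kit, paired-end reads, Illumina NovaSeq). Per the labels and the study's methods, the authors used Trimmomatic 0.39 for trimming, FastQC 0.12.1 for quality checks and STAR 2.7.11a for alignment (GRCh38.p14), and deposited expected counts per gene from RSEM 1.3.3, not normalised and in 2 tables, one for OSCs and non-OSCs and one for the hairpins. RSEM divides reads that fit several transcripts, so 6.85% and 6.92% of the values were not whole. The annotation and the strandedness are not given in the sources used here. Library columns named 2D and 3D were taken as non-OSC (adherent) and OSC (sphere), and 0 columns were left unmapped.

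The expected counts were rounded. Each table was analysed alone in R 4.3.3 with edgeR 4.0.16 (TMM, filterByExpr by group, quasi-likelihood test, Benjamini-Hochberg adjustment over all genes tested, threshold 0.05): 14287 genes in 6 libraries and 14574 in 9 libraries. The hairpin groups shared one fit. The depth, 7992505 to 11256530 counts per library, makes 3 counts equal to 0.268 to 0.373 CPM. The biological coefficient of variation was 0.0548 and 0.0482. Pairs of replicates gave 1.95 to 3.70 for chi-square over its degrees of freedom, above sampling noise. That value cannot show whether the libraries came from separate cultures. Each was kept as a sample of its own. Same-numbered libraries did not deviate together (correlations -0.0093 to 0.073 over 3 pairs and -0.054 to 0.095 over 9 pairs), and the numbers were not used as pairs. Names, exons and coordinates come from GENCODE 44, which matched all 62700 identifiers. Promoter windows come from RefSeq. The fitting scripts were tested on simulated counts.

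A gene was given with every library's value where it passed the test with an absolute log2 fold change of at least 1 or passed it with both hairpins, as were the 5 largest called changes per comparison. Up to 8 other pathway genes per comparison were named, those called with a group mean of at least 10 CPM, in order of size. PDK1 was named as a check of the hairpins. ATF3 was named because the study singled it out from this RNA-seq, so its values check nothing. SMAD6 was added to those given by library after its values were seen. The genes and lists were chosen with earlier results of these data known. The alternatives were DESeq2 1.42.0, a fit by library size alone, a replicate block, the compared groups by themselves, no filter, a filter of at least 10 counts in all libraries, and each library left out. The canonical transcript length was added as an alternative after the data were seen. Plots were drawn with Python 3.11.15 and matplotlib 3.10.9.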

Additional observations from a re-analysis of the deposited data

Results flagged for a closer look

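Levels differed between the hairpins for 23 of the 44 genes, by the direct test of shPDK1#2 against shPDK1#1 (edgeR adjusted p under 0.05). Of all genes tested, 16.3% differed. The test compares the hairpins, so it cannot tell an effect of PDK1 knockdown from any other effect of a hairpin. Log2 differences, shPDK1#2 minus shPDK1#1, are given in parentheses. The genes higher with shPDK1#2 were TGFB1 (0.152), SMAD6 (0.754), SMAD7 (0.513), SMAD9 (0.419), BAMBI (0.485), ID1 (0.578) and ID3 (1.005). Those lower were the ligands INHBA (-1.473) and BMP4 (-0.433), the latency protein LTBP1 (-0.549), the receptors TGFBR1 (-0.235), BMPR2 (-0.139) and ACVR1 (-0.286), the effectors SMAD1 (-0.242) and SMAD2 (-0.226), the inhibitors SMURF1 (-0.401), SKIL (-0.390), TGIF1 (-0.229) and PMEPA1 (-0.903), the antagonists and follistatin-like genes GREM1 (-0.910), FST (-0.811) and FSTL1 (-0.153), and the target TGFBI (-0.151). For LTBP1, SMAD1, SMAD9, PMEPA1, BAMBI, BMP4, BMPR2 and FSTL1 the hairpins' fold changes against shCtrl had opposite signs, and none of these passed the test with shPDK1#1. With shPDK1#2 against shCtrl, LTBP1, PMEPA1 and BAMBI passed it, and SMAD1, SMAD9, BMP4, BMPR2 and FSTL1 did not. The hairpins also left different amounts of PDK1 transcript, and the part of that difference was not tested. Calls of 10 of the 23 genes were lost under at least 1 alternative: without shPDK1#1 replicate 3 for TGFB1, SMAD1, SKIL, TGIF1, BAMBI, BMP4 and BMPR2, without shPDK1#1 replicate 2 for SMAD1 and BMP4, without shPDK1#1 replicate 1 for TGFB1, SMAD2 and BMPR2, without shPDK1#2 replicate 1 for TGFB1, SMAD1, SMAD9 and BMP4, without shPDK1#2 replicate 2 for TGFB1, TGFBR1, SMAD1, BAMBI and BMPR2, without shPDK1#2 replicate 3 for SMAD2 and BMPR2, and without any one shCtrl library for BMPR2. Without shPDK1#1 replicate 3, 18 genes differed. Other settings also called fewer: 21 by DESeq2, 21 with the compared groups by themselves and 22 with no filter on low counts.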

How the results depend on the processing

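No called gene changed direction under any of these alternatives. The number of the 44 genes called with shPDK1#1 ranged from 3 to 6 when single libraries were left out and was 3 without shCtrl replicate 1. Over all genes it ranged from 245 to 508, being 270 without shCtrl replicate 1, 282 without shCtrl replicate 2 and 245 without shPDK1#1 replicate 3, against 446 with all libraries. The fewer samples lower the power of these fits. The other counts stayed within 1.5 times the main value: among the 44 genes, 35 to 36 in OSCs, 18 to 26 with shPDK1#2 and 18 to 22 between the hairpins. Of the calls, 35 of 35 in OSCs, 2 of 5 with shPDK1#1, 18 of 25 with shPDK1#2 and 13 of 23 between the hairpins held under every alternative. DESeq2 called 35, 5, 21 and 21 of the 44 genes, and the fit with no filter 35, 5, 23 and 22. The losses named gene by gene above are those from left-out libraries. With the replicate block, 36, 6, 26 and 24 were called (9420, 507, 3943 and 2522 of all genes), with SMAD3 added for shPDK1#1 and SMURF1 for OSCs; the numbers were not shown to pair the samples. With the canonical transcript length, per-kilobase levels moved, and TGFBI took the first place in non-OSCs. For genes under 10 CPM, such as TGFB2, TGFB3, INHBB, ID2 and FSTL3, few counts limit what can be detected.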

Other observations

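Ratios between partner genes within a library, on the per-kilobase scale, were also read in the hairpin table. The ratio of INHBA to FST lay between 0.589 and 0.735 in the shCtrl libraries. It was higher with shPDK1#1, between 0.784 and 0.926. With shPDK1#2 it lay between 0.485 and 0.591, mostly lower but overlapping shCtrl. The ratio of BMP2 to GREM1, which leaves NOG out, lay between 6.27 and 6.90 with shCtrl. It lay between 6.87 and 8.45 with shPDK1#1, overlapping shCtrl, and between 14.1 and 16.7 with shPDK1#2, above both other groups. These ratios were computed after the values of the genes were seen, and no test was run on them.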
